A study of Mus musculus with 20 samples.

Results

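Heat shock proteins and their co-chaperones were examined across the layers of the mouse retina, in light and in darkness. The set holds every gene with a single platform symbol that names an HSP90, HSP70, HSP110, mitochondrial chaperonin or small heat shock protein, a numbered DnaJ protein of class A, B or C, a BAG protein (Bag1 to Bag6) or a heat shock factor. The rule used symbols and no measured value, and found 78 of 19938 genes, carried by 101 probe sets. Of these, 72 passed a filter on dim probe sets, as did 15057 genes in all. The tested members were 2 HSP90, 9 HSP70, 3 HSP110, 2 chaperonin and 7 small heat shock genes, 4, 10 and 25 J-proteins of classes A, B and C, 6 BAG genes, 2 heat shock factors, and Hspbp1 and Hspbap1, which the rule also took in.

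Transcripts were measured on 20 Affymetrix gene arrays from adult C57BL/6 mice, 7 to 8 weeks old. Laser capture microdissection, in which cells are cut from a tissue section under a microscope, gave the photoreceptor layer (outer nuclear layer with outer and inner segments, PRL in the plots), the inner nuclear layer (INL), the inner plexiform layer (IPL) and the ganglion cell layer (GCL), and the whole retina (WR) was measured beside them. Mice were light adapted for 6 h at 450 lux or dark adapted for 3 h at no more than 0.4 lux, and 2 arrays were run for each of the 10 groups. The labels give neither the number of animals behind an array nor a link between arrays and animals, so p-values measure the spread between these samples, which may be technical. All values are GCRMA intensities, a background-corrected and normalised probe set signal on a linear scale. Differences are in log2 units with the standard error of 1 limma fit over all arrays, and adjusted p-values are Benjamini-Hochberg values over the 15057 genes with a threshold of 0.05.

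Several arrays stood apart before any member was considered. The rod marker list (7 genes tested) had a mean log2 level of 9.32 to 9.48 in the photoreceptor layer and 9.07 to 9.19 in the whole retina, and all 7 genes were higher in the photoreceptor layer than in the other layers. In the other layers it lay between 5.45 and 7.66, with the highest values on the dark-adapted inner nuclear layer replicate 2 (7.46) and the light-adapted ganglion cell layer replicate 2 (7.66). Ganglion cell markers were at 7.28 to 8.27 in their own layer and at 4.84 to 6.62 elsewhere. Probe sets of the Y chromosome had a median intensity over 100 on 5 light-adapted arrays (replicate 1 of the photoreceptor, inner nuclear and whole retina groups and both ganglion cell layer arrays) and on no dark-adapted array. In the inner plexiform layer, both light-adapted arrays had median correlations across genes of 0.738 and 0.768 with the other groups, replicate 2 of the light-adapted whole retina had 0.721, and the dark-adapted whole retina arrays had 0.783 and 0.770. Replicate 2 of the dark-adapted inner plexiform layer was the array least like its own tissue (median correlation 0.810). The main counts are given with and without the arrays that moved them. Dropping the 5 arrays with Y-linked signal leaves the ganglion cell layer with dark-adapted arrays only. Dropping the light-adapted arrays of the inner plexiform layer does the same for that layer. Light and dark are then unbalanced between layers, so those counts do not come from the same comparison with fewer arrays. Shares of all genes called with arrays left out are not given here. A loss of calls among members or listed genes therefore cannot be told from a general loss of calls. Layers are mixtures of cells, so fewer cells of a type and less RNA per cell cannot be told apart.

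Molecular chaperones keep proteins folded. HSP70 binds exposed stretches of unfolded protein and cycles between ATP- and ADP-bound states, J-proteins bring it substrates and start ATP hydrolysis, and HSP110 and BAG proteins release the ADP. HSP90 takes over partly folded clients such as kinases and receptors, the chaperonins enclose them, and small heat shock proteins hold aggregating proteins without ATP. Heat shock factors raise many of these genes under stress, while the unfolded protein response raises those of the endoplasmic reticulum (ER). Photoreceptors renew their outer segments daily and send large amounts of membrane protein through the ER, and misfolded rhodopsin is a known cause of retinal degeneration.

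Across the 4 layers, 13 of the 72 tested members (18.1%) differed by a moderated F test, against 16.5% of all tested genes. The photoreceptor layer differed from the mean of the other 3 layers for 12 members and the inner plexiform layer for 10, the inner nuclear layer for 1 and the ganglion cell layer for 0 (limma; 8 with an unadjusted p under 0.05). The F test called 8 members when the 5 arrays with Y-linked signal were dropped, 8 when the light-adapted arrays of the inner plexiform layer were dropped, and 8 without replicate 2 of the dark-adapted photoreceptor layer. The map of all tested members shows each array's deviation from the gene's mean.

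**Figure D1:**
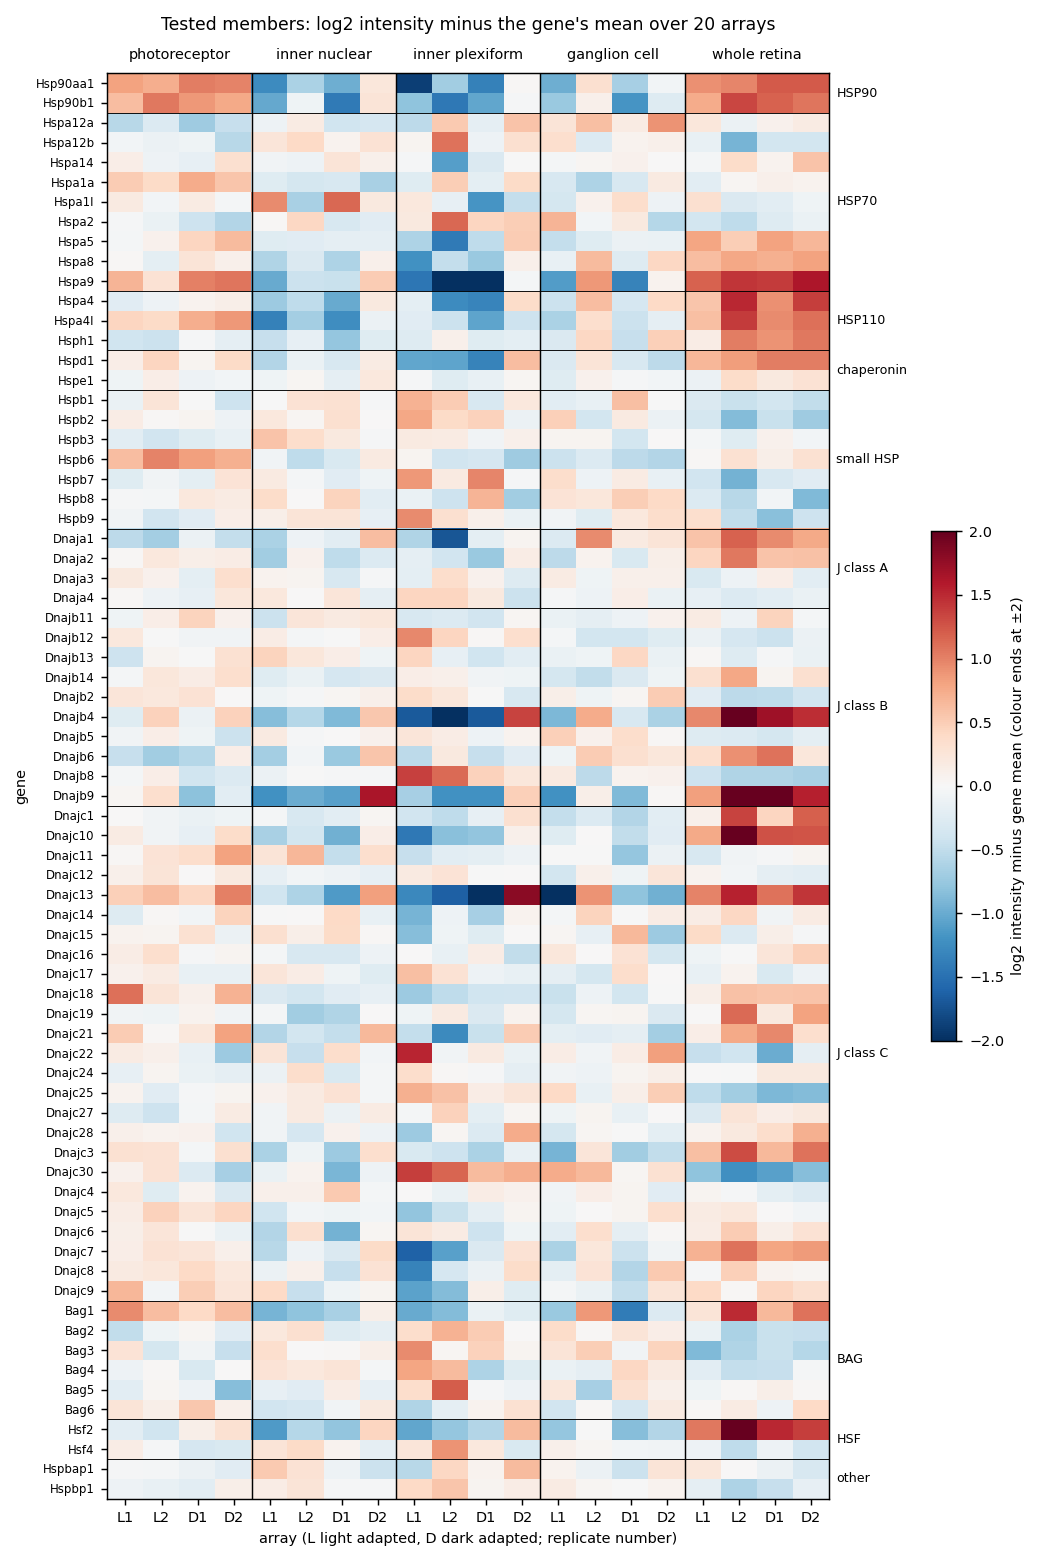
Each row is 1 of the 72 tested members, grouped by class, and each column 1 of the 20 arrays, ordered by tissue; colour gives the log2 intensity minus the gene's mean over all arrays, ending at 2 units in either direction. The 2 HSP90 rows are high in all photoreceptor layer and whole retina arrays, and many of the extreme values lie on light-adapted arrays of the inner plexiform layer.

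In the photoreceptor layer 10 members were higher and 2 lower than in the other layers, 16.7% of the 72; over all genes 12.9% were called, 7.26% higher and 5.69% lower. The median difference of the members was 0.11, beside -0.06 for all genes. Some of the higher members had no overlap between the 4 photoreceptor layer arrays and the 12 arrays of the other layers. These were the HSP90 genes Hsp90aa1 (cytosolic) and Hsp90b1 (ER), the HSP110 gene Hspa4l, the small heat shock gene Hspb6 and the J-protein gene Dnajc18. The share without overlap over all genes was not computed, so their number is not read as a result. All 12 called members kept their sign when light-adapted and dark-adapted arrays were compared separately, with a median size of 0.99 in light and 0.87 in darkness. Members were called on the average of these differences, so a shared sign was likely beforehand and is no separate support.

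Hsp90aa1, the stress-inducible cytosolic HSP90, was at 889.4 and 842.5 on the light-adapted and 1028.5 and 1010 on the dark-adapted photoreceptor layer arrays. The 12 arrays of the other layers ran from 137.3 to 633.7 with a median of 318, so every photoreceptor layer array lay above all of them. The difference was 1.54 ± 0.28 (SE, 2.92-fold; limma adjusted p = 0.00125). The highest values of the other layers fell on the ganglion cell layer array and the inner nuclear layer array with the most rod marker signal (633.7 and 597); the part of rod RNA in these values was not tested. Hsp90aa1 was higher in the photoreceptor layer than in the inner nuclear (1.54 ± 0.34), inner plexiform (1.86 ± 0.34) and ganglion cell layer (1.23 ± 0.34), and these 3 did not differ from each other beyond the threshold. Its other probe sets gave 1.62 and 1.53 for the photoreceptor layer; the probe table does not show which of them match the gene itself rather than near-identical copies elsewhere, so the gene's level is uncertain while the direction is shared.

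Hsp90b1 encodes GRP94, the HSP90 of the ER, which folds secreted and membrane proteins. Its intensities in the photoreceptor layer were 332.9 and 450.5 in light and 398.2 and 367.8 in darkness, and in the other layers 80.5 to 260.6 with a median of 127. The difference was 1.46 ± 0.28 (2.74-fold, limma adjusted p = 0.00207), with no overlap. Hspa5 encodes BiP, the ER HSP70 and the partner of GRP94. It was at 147.5 and 160.9 in light and 204.1 and 234.4 in darkness in the photoreceptor layer, and at 57 to 214.9 (median 129) elsewhere. Here the groups overlapped, and the difference of 0.60 ± 0.16 (limma adjusted p = 0.0214) was lost without the arrays with Y-linked signal (adjusted p = 0.15), without both light-adapted arrays of the inner plexiform layer (adjusted p = 0.091) and without any 1 of the 4 photoreceptor layer arrays.

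The promoters of these ER genes are shown because both hold the ER stress element, the site through which the unfolded protein response raises chaperone genes. The motif searched was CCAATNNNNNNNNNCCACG on either strand, in RefSeq windows of 300 bases around the start (GRCm38.p6); it was chosen after the members' values were known. Among 64 members with a window it was found in Dnajc3, Hsp90b1 and Hspa5 (4.69%), against 0.137% of 27025 genes. A site known from ER chaperone genes was likely to be found in them, so these shares are a description and were not tested. Dnajc3 encodes the ER J-protein p58IPK. The stretches printed are chr2:34771930-34772049 on the plus strand for Hspa5 and chr10:86705520-86705669 on the minus strand for Hsp90b1, 5′ to 3′ along the gene, with the motif in capitals; Hsp90b1 has 2 matches, the second on the other strand.
Hspa5: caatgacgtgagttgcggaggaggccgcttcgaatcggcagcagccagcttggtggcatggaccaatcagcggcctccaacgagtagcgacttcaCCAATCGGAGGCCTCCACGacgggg
Hsp90b1: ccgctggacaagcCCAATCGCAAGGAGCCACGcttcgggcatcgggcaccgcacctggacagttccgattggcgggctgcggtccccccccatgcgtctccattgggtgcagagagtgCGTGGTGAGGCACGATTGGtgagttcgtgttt

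Among the other HSP70 genes, Hspa9, the mitochondrial HSP70 mortalin, was at 83.6 and 63.7 in light and 105.7 and 109.4 in darkness in the photoreceptor layer. The other layers ranged from 10.7 to 95 with a median of 32.1, and 95 was on the light-adapted ganglion cell layer array with the most rod signal. Its difference of 1.48 ± 0.36 (limma adjusted p = 0.0108) was of the same size without the arrays with Y-linked signal (1.42 ± 0.41) but then had an adjusted p of 0.059. Hspa1a, an inducible cytosolic HSP70, was at 94.1, 86.3, 111 and 97.1 in the photoreceptor layer and at 42.2 to 93.4 (median 54.5) elsewhere, a difference of 0.73 ± 0.15 (limma adjusted p = 0.0041). It was higher than in the inner nuclear layer (0.94 ± 0.19) and the ganglion cell layer (0.81 ± 0.19), and the inner plexiform layer arrays spread from 55.8 to 93.4. Hspa1a and its near-identical neighbour Hspa1b share a further probe set, not counted here, which gave 0.24 ± 0.14 for the photoreceptor layer. Hspa12a, a distant HSP70 relative, was lower in the photoreceptor layer (30.8, 37.5, 27.5 and 32.7) than elsewhere (31.5 to 84.1, median 50.6), by -0.64 ± 0.19 (limma adjusted p = 0.0366), with overlap. Hspa8, the constitutive HSP70 that also uncoats clathrin vesicles, did not pass the threshold (0.30 ± 0.19, limma adjusted p = 0.339).

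Hspa4l belongs to the HSP110 family, which exchanges the nucleotide of HSP70. Its intensities in the photoreceptor layer were 188.7 and 182.3 in light and 231.8 and 257.1 in darkness, above every array of the other layers (54.8 to 176.7, median 105). The difference was 1.13 ± 0.22 (limma adjusted p = 0.00186). Of its relatives, Hsph1 differed by -0.08 ± 0.19 (limma adjusted p = 0.833). Bag1, another exchange factor, was at 96.1, 76.5, 65.8 and 76.4 in the photoreceptor layer and at 19 to 91.2 (median 31) elsewhere, with overlap through 1 ganglion cell layer array, and differed by 1.15 ± 0.27 (limma adjusted p = 0.00894). The other 5 BAG genes were not called in this comparison.

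Hspb6 encodes HSP20, a small heat shock protein best known from muscle. It was at 278.1 and 357.4 in light and 318.9 and 294.6 in darkness in the photoreceptor layer, and the other layers lay at 110.1 to 203.8 with a median of 140, well apart. With 1.11 ± 0.13 (2.16-fold, limma adjusted p = 2.7e-05) it had the smallest p of all members. It was higher than in the inner nuclear (0.96 ± 0.16), inner plexiform (1.13 ± 0.16) and ganglion cell layer (1.24 ± 0.16). The other 6 tested small heat shock genes were not called, and all 6 differed in the negative direction; Hspb1, which encodes HSP27, differed by -0.23 ± 0.15 (limma adjusted p = 0.359).

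Dnajc18, a class C J-protein, was at 78.5, 43.7, 39.1 and 58.9 in the photoreceptor layer and at 22.1 to 36.2 (median 28.25) elsewhere, with no overlap and a difference of 0.87 ± 0.17 (limma adjusted p = 0.00186). Dnajc5, the cysteine string protein of synaptic vesicles, was higher by 0.46 ± 0.11 (limma adjusted p = 0.0126), at 140.9 to 174.1 against 73.8 to 159.4. Dnajc30, a mitochondrial J-protein, was lower by -0.52 ± 0.15 (limma adjusted p = 0.0254), at 47 to 91.3 against 39.6 to 193.8. Dnajc6 (auxilin, the J-protein of clathrin uncoating in neurons) and Dnaja1 differed by 0.16 ± 0.18 and -0.31 ± 0.23 and were not called. No class A or class B J-protein was called in the photoreceptor layer.

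Without the 5 arrays with Y-linked signal, 5 of the 12 calls were left (Hsp90aa1, Hsp90b1, Hspa4l, Hspb6 and Bag1), and without replicate 2 of the dark-adapted photoreceptor layer 6 calls were left. Leaving out 1 array at a time gave 6 to 18 calls, the most without replicate 2 of the dark-adapted inner plexiform layer. Hspb6, Hsp90aa1, Hsp90b1 and Hspa4l were called under each of the settings run; each of the other 8 lost its call under at least 1.

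**Figure D2:**
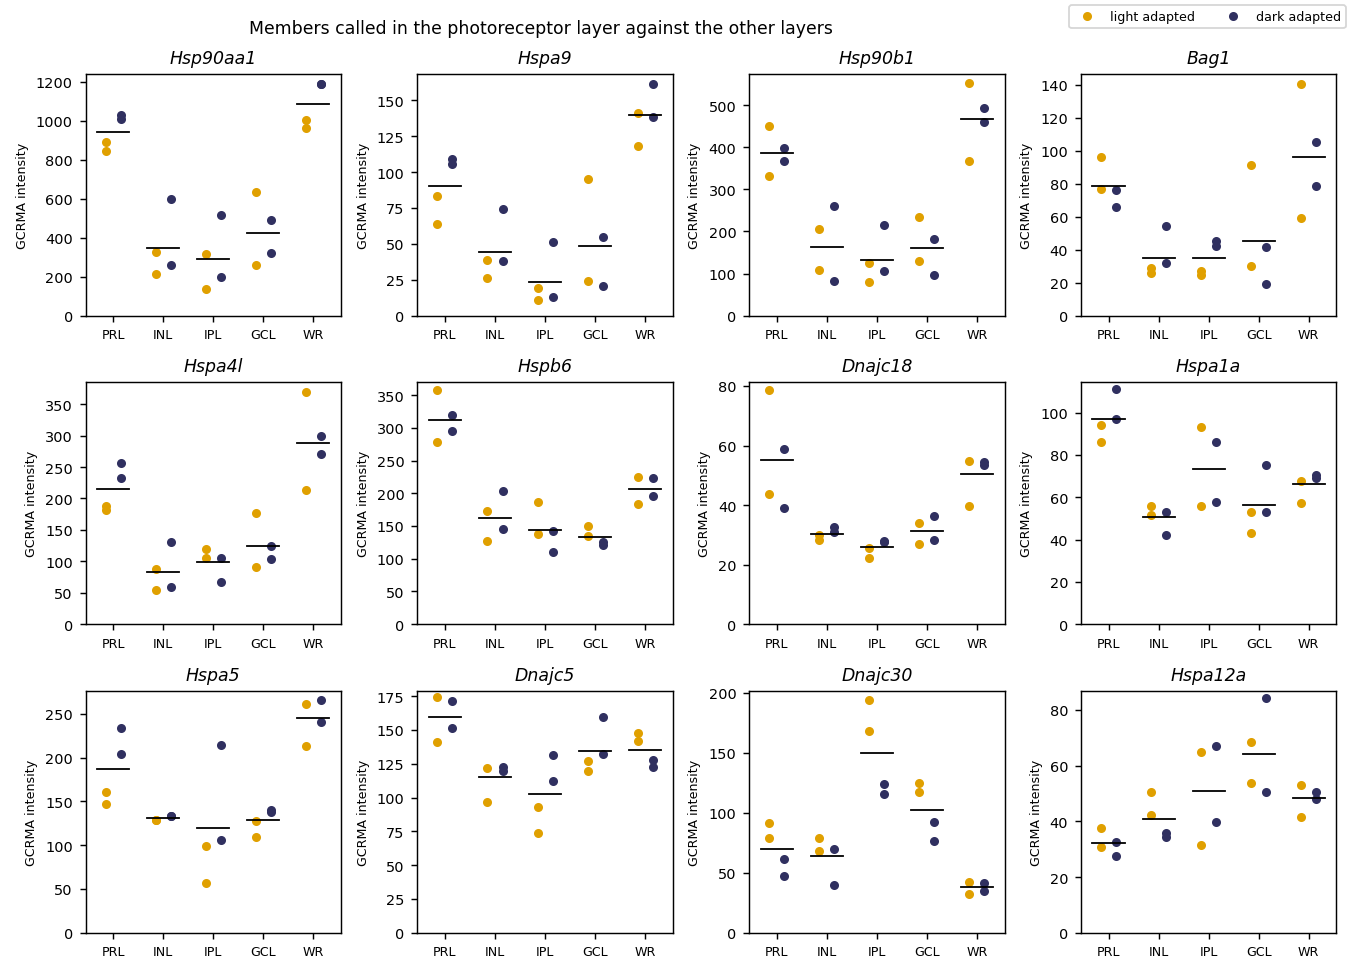
GCRMA intensity (linear axis from 0) of the 12 members called in the photoreceptor layer, by tissue; each point is 1 array, coloured by adaptation, and the line is the mean of 4 arrays. Hsp90aa1, Hsp90b1, Hspa4l, Hspb6 and Dnajc18 have all photoreceptor layer points above the points of the other 3 layers, while Dnajc30 and Hspa12a are low there.

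The inner plexiform layer, which holds mostly synapses and neurites with few cell bodies, had 4 members higher and 6 lower than the other layers, 13.9% of the 72 against 13.6% of all genes (8.29% higher, 5.29% lower). Dnajb8, a class B J-protein that suppresses protein aggregation and is known from testis, was at 148.6 and 125.3 in light and 79.3 and 67.4 in darkness. The other layers held it at 39.7 to 64.9 (median 56.35), below all 4 arrays, and the difference was 0.88 ± 0.13 (limma adjusted p = 0.000678). Dnajc30 was at 193.8, 167.8, 115.3 and 124 against 39.6 to 124.5 (median 77.65), a difference of 0.97 ± 0.15 (limma adjusted p = 0.000774), and the light-adapted ganglion cell layer arrays (124.5 and 117.2) overlapped it. Dnajb12, an ER-membrane J-protein, and Hspa2, an HSP70 known from germ cells, were higher by 0.50 ± 0.13 and 0.65 ± 0.18.

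Hspa9 was lower in this layer, at 19.3 and 10.7 in light and 13 and 51 in darkness against 20.7 to 109.4 (median 59.35), a difference of -1.46 ± 0.36 (limma adjusted p = 0.0138). Hsp90aa1 was at 137.3, 314.9, 198.4 and 517.2 against 213 to 1028.5 (median 543), a difference of -0.94 ± 0.28 (limma adjusted p = 0.0346). Dnajc7, a J-protein that binds both HSP70 and HSP90, was lower by -0.61 ± 0.18, the histone co-chaperone gene Dnajc9 by -0.59 ± 0.18, Dnajc18 by -0.52 ± 0.17 and Dnajc5 by -0.42 ± 0.11. Hsp90b1, Hspa5, Hspa8, Hspd1 and Dnaja1 differed by -0.74 ± 0.28, -0.45 ± 0.16, -0.53 ± 0.19, -0.64 ± 0.24 and -0.53 ± 0.23, with none past the threshold. Uncounted probe sets listed for several genes went the other way. Those of Hspa8 with Snord14c and Snord14d gave 1.71 ± 0.60 and 1.47 ± 0.61, and that of Dnaja1 with Mir207 gave 0.35 ± 0.10. The direction for Hspa8 and Dnaja1 is thus uncertain.

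The median size of the 10 differences was 1.01 among light-adapted and 0.42 among dark-adapted arrays, and 9 kept their sign, which selection on the average favours. Dnajc30 had nearly the same value in both (0.99 ± 0.21 and 0.95 ± 0.21), whereas Dnajc7 was at -1.24 ± 0.25 in light and 0.02 ± 0.25 in darkness. When the light-adapted arrays of this layer were dropped, its dark-adapted arrays alone were set against light-adapted and dark-adapted arrays of the other layers. In this unbalanced comparison no member was called, and Dnajc7 turned to 0.06 ± 0.23 (limma adjusted p = 0.942). Dnajc30 was then at 0.67 ± 0.20 (limma adjusted p = 0.186) and Dnajb8 at 0.43 ± 0.17 (limma adjusted p = 0.317). Leaving out 1 array gave 4 to 15 calls, the fewest without replicate 1 and the most without replicate 2 of the dark-adapted inner plexiform layer. Amacrine markers, whose cells send processes into this layer, were higher for 3 of 6 genes and bipolar markers for 2 of 6. Rod and ganglion cell markers were lower for 1 of 7 each. Of 7 handling stress genes (immediate early genes such as Fos) 2 were higher. The part of all these genes in the members' values was not tested.

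**Figure D3:**
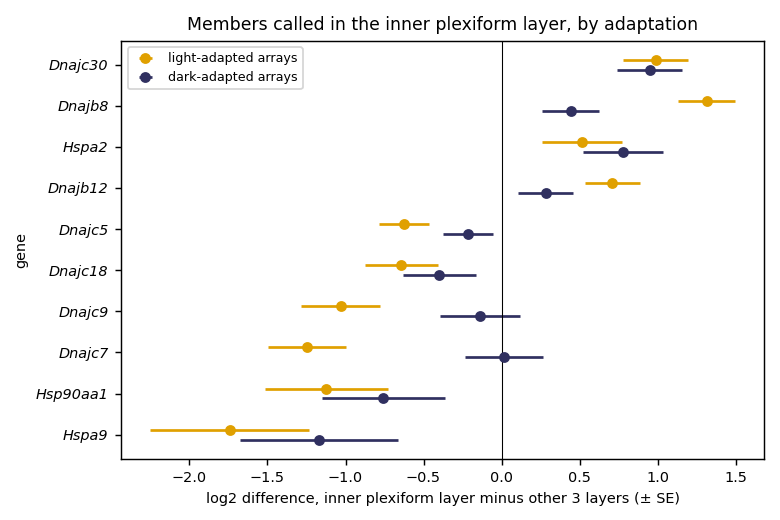
Log2 difference between the inner plexiform layer and the mean of the other 3 layers (± SE of the fit) for the 10 called members, computed within light-adapted and dark-adapted arrays. Dnajc30 has nearly the same difference in both, and Dnajc7 lies at -1.24 in light and 0.02 in darkness.

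In the inner nuclear layer 1 member was called, against 0.611% of all genes (0.252% higher, 0.359% lower): Dnajc30 was at 67.8 and 78.8 in light and 39.6 and 69.9 in darkness, beside 47 to 193.8 (median 104) in the other layers. The difference was -0.69 ± 0.15 (limma adjusted p = 0.0435) and lost its call in 20 of 32 other settings. Dnajc30 thus ran from the inner plexiform layer (115.3 to 193.8) over the ganglion cell layer (76.5 to 124.5) to the photoreceptor (47 to 91.3) and inner nuclear layer (39.6 to 78.8); the neighbours in this order were not called different from each other. In the ganglion cell layer limma called 0 members (8 had an unadjusted p under 0.05), against 1.87% of all genes. The smallest p belonged to Hspb6 (-0.54 ± 0.13, limma adjusted p = 0.0501), Hspa12a (0.67 ± 0.19, adjusted p = 0.102) and Dnajb12 (-0.42 ± 0.13, adjusted p = 0.12). Hspa12a was at 53.7, 68.5, 50.6 and 84.1 there and at 27.5 to 67 (median 36.6) in the other layers. Hspa8 was at 496.6 and 858.5 in light and 464.5 and 737.6 in darkness in the ganglion cell layer, a difference of 0.46 ± 0.19 that did not pass (limma adjusted p = 0.364).

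Pairs of layers were compared one by one. The photoreceptor layer had 7 members higher and 0 lower than the inner nuclear layer, where 5.33% of all genes were called, 4.07% higher and 1.26% lower. It had 14 higher and 5 lower than the inner plexiform layer, beside 21.4% of all genes (9.68% higher, 11.7% lower). It had 5 higher and 1 lower than the ganglion cell layer, beside 7.66% of all genes (4.57% higher, 3.09% lower). These counts moved with the arrays: with the Y-signal arrays dropped they were 2 against the inner nuclear and 2 against the ganglion cell layer, and against the inner plexiform layer the count was 5 when its light-adapted arrays were dropped. The largest of these differences was Hspa9 against the inner plexiform layer, 2.20 ± 0.44 (limma adjusted p = 0.0023). Hspa12a was the member lower than in the ganglion cell layer, by -0.98 ± 0.24 (limma adjusted p = 0.014). The inner nuclear layer had 2 members lower than the inner plexiform layer (4.85% of all genes called, 1.62% higher and 3.23% lower), Dnajc30 by -1.24 ± 0.18 and Dnajb8 by -0.84 ± 0.16. The inner plexiform layer had 2 higher than the ganglion cell layer (3.1% of all genes called, 1.81% higher and 1.29% lower), Dnajb8 by 0.85 ± 0.16 and Dnajb12 by 0.69 ± 0.15. The comparison of inner plexiform with ganglion cell layer had 0 calls when either set of arrays was dropped, and that of inner nuclear with inner plexiform layer had 0 when the light-adapted inner plexiform arrays were. Between the inner nuclear and the ganglion cell layer limma called 0 members (5 at an unadjusted p under 0.05; 0.458% of all genes).

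Members that hold a heat shock element are shown next, because heat shock factors act through it. The element is a row of inverted GAA units; the 2-unit forms searched were GAANNTTC and TTCNNGAA, and the 3-unit forms GAANNTTCNNGAA and TTCNNGAANNTTC on both strands; a 3-unit match also counts as a 2-unit match. Of 64 members with a RefSeq window, 15 (23.4%) held a 2-unit form, against 17.0% of all 27025 genes, and Dnajb6, Hspd1, Hspe1 and Hsph1 (6.25%) held a 3-unit form, against 0.662%. Hspd1 and Hspe1 lie head to head and share these bases, so they are 1 sequence counted under both genes. The shares are a description and were not tested. Among the members called in the photoreceptor layer, Hspb6 and Hspa1a had a 2-unit form. Bag1, Hsp90b1, Hspa4l, Hspa5 and Hspa12a had a window but neither form in it. Hsp90aa1, Hspa9, Dnajc18, Dnajc5 and Dnajc30 had no window among the RefSeq promoters used. The stretches, with the element in capitals, are chr1:55087998-55088117 on the plus strand for Hspe1, chr5:29735798-29735897 on the plus strand for Dnajb6, chr7:30553151-30553240 on the plus strand for Hspb6 and chr17:34972217-34972306 on the minus strand for Hspa1a (GRCm38.p6, RefSeq).
Hspe1: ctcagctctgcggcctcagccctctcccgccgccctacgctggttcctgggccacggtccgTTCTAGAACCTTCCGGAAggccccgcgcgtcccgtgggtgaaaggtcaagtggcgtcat
Dnajb6: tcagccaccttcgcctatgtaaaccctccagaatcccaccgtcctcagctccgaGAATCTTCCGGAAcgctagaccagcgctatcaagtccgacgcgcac
Hspb6: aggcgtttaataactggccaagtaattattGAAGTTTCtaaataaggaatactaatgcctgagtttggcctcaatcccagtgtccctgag
Hspa1a: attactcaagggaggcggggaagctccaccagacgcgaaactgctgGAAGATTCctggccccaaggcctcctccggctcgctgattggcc

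Hspd1 and Hspe1 encode the mitochondrial chaperonin and its lid. Hspe1 was at 166.6 to 253.6 over all 20 arrays, and differed by 0.02 ± 0.12 in the photoreceptor layer (limma adjusted p = 0.928). Hspd1 was at 141.8 and 175.7 in light and 134.5 and 170 in darkness in the photoreceptor layer, at 63.2 and 62.4 in the light-adapted and 51.2 and 199.3 in the dark-adapted inner plexiform layer, and differed between these layers by 0.96 ± 0.29 (limma adjusted p = 0.027). Against all other layers the photoreceptor layer value of 0.63 ± 0.24 did not pass, and the second Hspd1 probe set gave 1.18. Processed copies of Hspd1, Hspe1, Hspa8 and Hsp90aa1 exist in the genome, so their signal is uncertain.

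The whole retina differed from the mean of the 4 dissected layers for 42 members (58.3%), 25 higher and 17 lower. Over all genes 48.5% were called, 19.9% higher and 28.6% lower. The member counts include Dnajb9, which passed the filter only through the whole retina, and a count without it is given below. The median difference was 0.13 for the members and -0.18 for all genes. The whole retina was not dissected, so dissection and tissue make-up cannot be told apart in this comparison. Rod markers were higher for 7 of 7 genes (median 1.88), bipolar for 4 of 6 (median 1.14), Müller glia for 5 of 6 and amacrine for 3 of 6. Of 7 ganglion cell markers 1 was higher and 1 lower. Lower were 2 of 5 astrocyte and vascular, 1 of 3 microglia, 1 of 2 pigment epithelium and 2 of 7 handling stress genes. The part of these genes in the members' values was not tested. All 42 members had the same sign in light and in darkness, which selection on the average of both makes likely.

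By class, 2 of 2 HSP90, 3 of 3 HSP110 and 2 of 4 class A J-protein genes were higher, and none of these was lower. Among HSP70 genes 3 were higher and 1 lower, among class B J-proteins 4 (Dnajb9 included) and 4, among class C 8 and 3, among BAG genes 1 and 3, and among small heat shock genes 0 and 5. Hsf2, a heat shock factor active in development, was at 83.7 and 198.9 in light and 114.2 and 104.9 in darkness in the whole retina, above all 16 layer arrays (18.3 to 62.5, median 26.9), a difference of 1.95 ± 0.25 (3.87-fold, limma adjusted p = 3.06e-05). Dnajc10, an ER J-protein that reduces disulfides, was at 80.8, 207.9, 115.6 and 114 against 17.7 to 61.6 (median 40.35), 1.70 ± 0.23, also with no overlap. Hspa9 was at 118.2, 140.8, 138.1 and 161.1 against 10.7 to 109.4 (median 45), 1.76 ± 0.35, with no overlap.

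Dnajb9, the ER J-protein ERdj4, was at 32.5 and 85.4 in light and 89.2 and 54.4 in darkness in the whole retina and at 4.1 to 57.1 (median 11.05) in the layers. It passed the filter only through the whole retina, since 1 of the 16 layer arrays was over an intensity of 32, and 4 were set to the floor of 8, so its call is not counted as a result and no size is given. Without it, 41 of 71 members were called (57.7%), 24 higher and 17 lower. The 48.5% of all genes was not recomputed without genes that passed the filter in this way. Dnajb4, a cytosolic J-protein, was at 64.5, 147.1, 107 and 91.5 against 8.3 to 84.6 (1.97 ± 0.41), overlapping at 1 dark-adapted inner plexiform layer array. Dnajc13, which acts on endosomes, differed by 1.57 ± 0.53, and all 14 of its probe sets that passed the filter were positive (0.61 to 2.42). Of the main cytosolic chaperones, Hsp90aa1 was higher by 1.36 ± 0.27, Hspa8 by 0.91 ± 0.19 and Dnaja1 by 1.08 ± 0.22. Dnaja1 is uncertain, because a probe set shared with the microRNA gene Mir207 gave -0.44 ± 0.10. Hspa4, Hspa4l and Hsph1 were higher by 1.36 ± 0.29, 1.26 ± 0.21 and 0.97 ± 0.18, Hspd1 by 1.11 ± 0.23, Hsp90b1 by 1.36 ± 0.27 and Hspa5 by 0.86 ± 0.16.

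Dnajc30 had the largest negative difference, at 42.6 and 31.9 in light and 35 and 41.5 in darkness against 39.6 to 193.8 in the layers (-1.24 ± 0.14, limma adjusted p = 1.36e-05). Dnajc25 was at 37.6, 32.8, 28.5 and 29.3 against 45.7 to 87.5, with no overlap (-0.93 ± 0.13). Bag3, which sends chaperone clients to autophagy, was lower by -0.78 ± 0.17, Hspb2 by -0.74 ± 0.16, Dnajb8 by -0.71 ± 0.13 and Dnajc22 by -0.63 ± 0.24. Hspb1 was at 37.4, 33.7, 35.5 and 32.6 against 34.4 to 74.6 (-0.50 ± 0.15). Hspe1, Hspa1a, Dnajc5, Dnajc6 and Hspa2 differed by 0.23 ± 0.12, -0.00 ± 0.15, 0.11 ± 0.11, 0.33 ± 0.17 and -0.40 ± 0.18 and were not called. Without replicate 2 of the light-adapted whole retina, 24 calls were left, 18 higher and 6 lower, and Hspb2 was then the 1 small heat shock gene called.

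**Figure D4:**
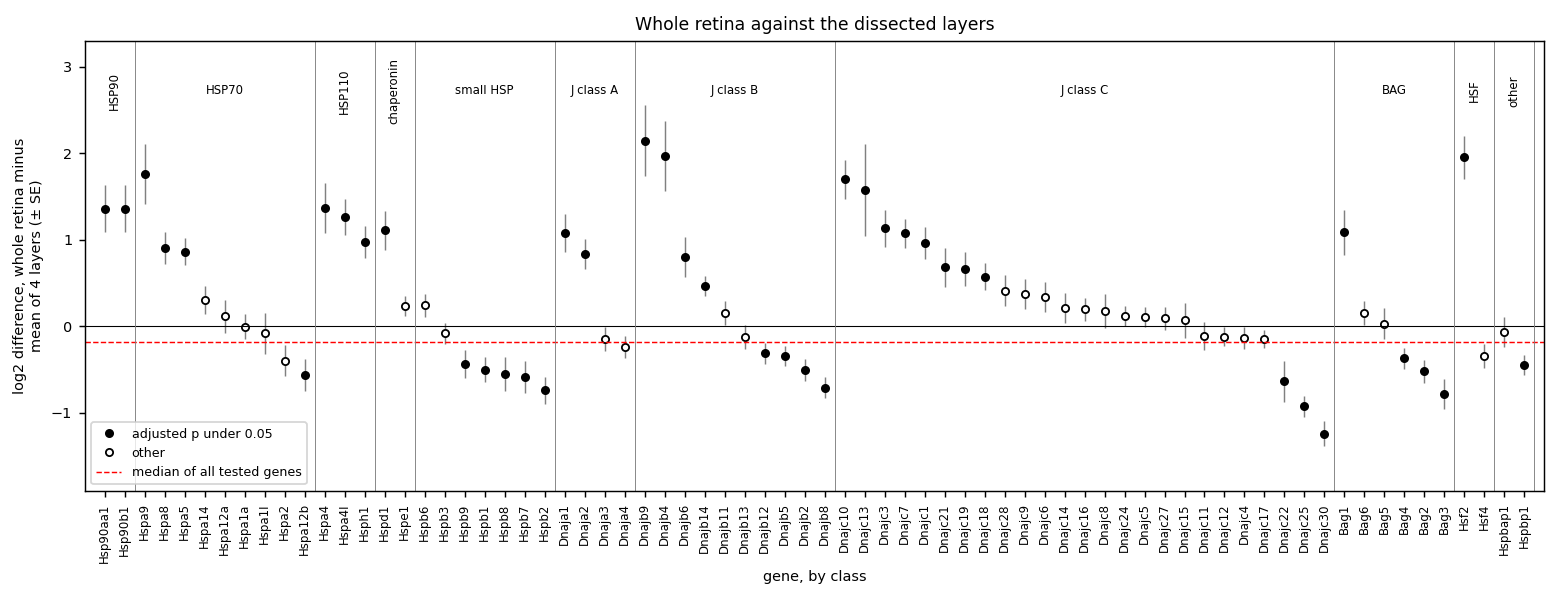
Log2 difference between the whole retina and the mean of the 4 layers (± SE of the fit) for the 72 tested members, ordered by size within each class; filled points have an adjusted p under 0.05 and the dashed line is the median of all tested genes (-0.18). The HSP90 and HSP110 points all lie above 0, and 5 of the 7 small heat shock genes are filled and below it. Dnajb9, which passed the filter only through the whole retina, is among the 72.

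Few members differed between dark-adapted and light-adapted arrays. Y-linked signal was on 5 light-adapted and no dark-adapted array, so adaptation and what goes with that signal cannot be fully told apart. In the ganglion cell layer both light-adapted arrays carried it, so there they cannot be told apart at all. In the inner plexiform layer no array carried it. Averaged over the 5 tissues (10 against 10 arrays), limma called 0 of 72 (7 at an unadjusted p under 0.05), against 0.0133% of all genes. The smallest p belonged to Dnajc30 (-0.44 ± 0.11, limma adjusted p = 0.592), Hspa5 (0.38 ± 0.13, adjusted p = 0.705) and Hsf4 (-0.29 ± 0.11, adjusted p = 0.715). On this average handling stress genes were negative for 7 of 7 (median -0.09, 0 called), and their part was not tested. Within tissues limma called 0 members in the photoreceptor layer (1 at an unadjusted p under 0.05; 0.0465% of all genes called), 0 in the inner nuclear layer (1; 0%), 0 in the ganglion cell layer (2; 0.00664%), and for the whole retina 0 (0; 0.0266%). With 2 arrays a side the median standard error was 0.31, which limits what such a comparison can detect. Rod markers were positive in darkness for 7 of 7 genes in the inner nuclear layer (median 1.72, 0 called), and their part was not tested. In the photoreceptor layer the differences ran from -0.70 (Dnajb9) to 0.56 (Hspa9), and in the whole retina from -0.54 (Hspb9) to 0.40 (Dnajc16).

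In the inner plexiform layer 3 members were called (4.17%), 1 higher and 2 lower in darkness, against 1.83% of all genes (0.717% higher, 1.12% lower). Bag4, a BAG protein also called SODD that binds death receptors, was at 244.5 and 219.5 in light and 92.3 and 119 in darkness, a difference of -1.14 ± 0.21 (limma adjusted p = 0.0172). In the other tissues it ranged from 101.4 to 187.8 with both adaptations, so the 2 highest of all 20 arrays were those of the light-adapted inner plexiform layer. Dnajc7 was at 31 and 44.4 in light and 77.8 and 115.9 in darkness (1.36 ± 0.31, limma adjusted p = 0.0369), and the light values were the 2 lowest of all 20 arrays. Dnajb8 fell from 148.6 and 125.3 to 79.3 and 67.4 (-0.90 ± 0.22, limma adjusted p = 0.0497). Hspa5 was at 98.6 and 57 in light and 106.4 and 214.9 in darkness (1.01 ± 0.28) and did not pass (limma adjusted p = 0.0736). Cell type markers moved in the same comparison. Müller glia markers were positive for 6 of 6 genes (median 1.07, 1 called) and bipolar for 5 of 6 (median 0.59, 1 called). Ganglion cell markers were positive for 7 of 7 (median 0.20, 1 called), amacrine for 6 of 6 (median 0.41, 0 called) and rod for 3 of 7. Handling stress genes were negative for 5 of 7 (median -0.33, 0 called). The part of these genes in the members' values was not tested. A test of whether the dark effect differed between tissues called 0 members (limma F test, 4 at an unadjusted p under 0.05), against 0.0266% of all genes. The smallest adjusted p was that of Bag4 (0.361). No inner plexiform layer array carried Y-linked signal, so dropping the arrays with it left the arrays compared in this layer the same. Only the spread shared over all arrays and the adjustment over genes could then move these calls. The 3 calls were lost without replicate 1 of the light-adapted and without replicate 2 of the dark-adapted inner plexiform layer, when the arrays with Y-linked signal were dropped, and in the fit on this layer's 4 arrays alone; Dnajb8 lost its call in 24 of 30 settings. Leaving out replicate 1 of the dark-adapted inner plexiform layer gave 5 calls, 1 of them shared.

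**Figure D5:**
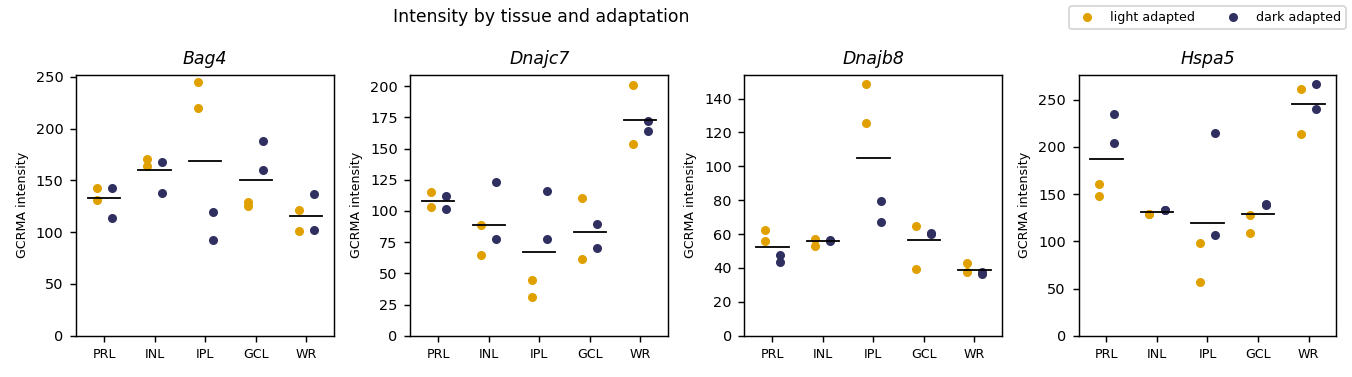
GCRMA intensity (linear axis from 0) of Bag4, Dnajc7, Dnajb8 and Hspa5 by tissue; each point is 1 array, coloured by adaptation, and the line is the mean of 4 arrays. In the inner plexiform layer light-adapted points are the highest of Bag4 and Dnajb8 and the lowest of Dnajc7.

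Genes that work with the members were counted from 5 lists, beside the shares of all genes called: 12.9% in the photoreceptor layer, 13.6% in the inner plexiform layer and 48.5% in the whole retina. The lists were chosen with earlier results of these data known, so these counts do not test whether a list stands out. Of 17 tested HSP90 co-chaperones, 3 (17.6%) were higher in the photoreceptor layer and 0 lower: Aipl1 by 1.34 ± 0.19 (limma adjusted p = 0.000114), Ptges3 by 0.96 ± 0.23 and Ahsa1 by 0.47 ± 0.14. Aipl1 is the photoreceptor co-chaperone needed for rod phosphodiesterase, Ptges3 is p23 and Ahsa1 speeds HSP90's ATPase. The count was 2 with the Y-signal arrays dropped, 1 with the light-adapted inner plexiform arrays dropped and 1 without replicate 2 of the dark-adapted photoreceptor layer. In the inner plexiform layer 3 were lower, led by Ahsa1 (-0.97 ± 0.14) and Ptges3 (-1.39 ± 0.23), and 1 was higher, Ppp5c (0.43 ± 0.13). In darkness 3 (17.6%, against 1.83% of all genes) were higher in that layer: Ahsa1 (1.36 ± 0.23, limma adjusted p = 0.0119), Ptges3 (1.94 ± 0.39, adjusted p = 0.025) and Stip1 (1.49 ± 0.33, adjusted p = 0.0363), which joins HSP70 to HSP90. Without replicate 2 of the dark-adapted inner plexiform layer 1 of these was called, and 2 were with the Y-signal arrays dropped or without replicate 2 of the dark-adapted photoreceptor layer. Both inner plexiform layer comparisons share the light-adapted arrays.

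Of 14 tested genes of the cytosolic chaperonin CCT, prefoldin and their partners, which fold actin, tubulin and G-protein subunits, 8 (57.1%) were higher in the photoreceptor layer and 0 lower; 7.26% of all genes were higher. The median difference was 0.70, against -0.06 for all genes. Cct3 was higher by 0.87 ± 0.16 (limma adjusted p = 0.00134) and Cct4 by 0.78 ± 0.15. The count was 2 with the Y-signal arrays dropped and 5 without replicate 2 of the dark-adapted photoreceptor layer. In the inner plexiform layer 4 (28.6%) were lower, led by Cct5 (-0.73 ± 0.16) and Cct4 (-0.61 ± 0.15), but 1 was with the Y-signal arrays dropped, as when its dark-adapted replicate 1 was left out. With the light-adapted arrays of this layer dropped, 0 genes were called in any of the 5 lists. In the whole retina 9 of the 14 (64.3%) were higher, led by Vbp1 (2.39 ± 0.27).

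Of 19 ER chaperone and unfolded protein response genes, 5 (26.3%) were higher in the photoreceptor layer and 0 lower, among them the transcription factor gene Atf4 (0.66 ± 0.14) and the disulfide isomerase gene Pdia4 (0.72 ± 0.18). The count was 1 with the Y-signal arrays dropped, 1 without replicate 2 of the dark-adapted photoreceptor layer, 2 with the light-adapted inner plexiform arrays dropped and 3 without replicate 1 of the dark-adapted inner plexiform layer. Of 10 HSP70 exchange factors and regulators 1 was higher there, Sgtb (1.51 ± 0.29). Of 8 mitochondrial partners and proteases 2 were higher, Yme1l1 (1.30 ± 0.32) and Lonp1 (0.38 ± 0.12). None was called without replicate 2 of the dark-adapted photoreceptor layer, and 1 was without replicate 1 of the dark-adapted inner plexiform layer or with either the Y-signal or the light-adapted inner plexiform arrays dropped. In the whole retina 9 ER genes were higher and 1 lower (52.6%), 4 HSP70 regulators higher and 3 lower (70%), 4 of 17 HSP90 co-chaperones higher (23.5%) and 4 of 8 mitochondrial genes higher (50%). Without replicate 2 of the light-adapted whole retina 5 ER genes and 2 HSP70 regulators were called, all higher. With the Y-signal arrays dropped 4 HSP70 regulators were called. Hspbp1 is counted both as a member and in the HSP70 regulator list.

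The 6 members under the filter were not tested. Dnajb1, the main J-protein of the heat shock response, lay at 14.7 to 32.2 over the 20 arrays, Hspa13 at 7.7 to 28.6, Hspb11 at 10.3 to 25.9 and Dnajc2 at 6.9 to 19.1. Dnajb3 (4.7 to 11.2) and Dnajb7 (4.1 to 8.8) were near or under the floor. Hsp90ab1, Hspa1b and Hsf1 had no probe set with a single symbol and were not analysed here.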

How the data were processed

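RNA of the dissected layers and of whole retina was extracted with Trizol and labelled in 2 cycles, per the labels' protocols. The authors deposited GCRMA intensities on a linear scale for 35557 probe sets, with the method credited to the submitters' processing notes and its version not given in the sources used here. Genes were named from the platform annotation: 21789 probe sets had 1 symbol, 1621 several and 12147 were not listed. Values under 8 were set to 8 and taken to log2, and a probe set was kept where log2 was over 5 on at least 2 arrays. The probe set with the highest mean stood for a gene. A model of 10 group means was fitted with limma 3.58.1 in R 4.3.3 (lmFit, eBayes with an intensity trend), with 2-sided tests and Benjamini-Hochberg adjustment at 0.05, and was tested on simulated data. Each layer was set against the average of the 3 remaining layers, whole retina against the average over the 4 layers, and darkness against light. Genes named were up to 6 called members with the largest differences in each direction, or the 3 with the smallest p where none was called, a fixed group of main chaperones, and up to 2 genes of a partner list in each direction. Dnajc18 in the photoreceptor layer, Hspa4 and Hspa4l in the whole retina, Ahsa1 and Stip1 were added after their values were seen. The members and lists were chosen with earlier results of these data known. Replicate numbers were not used as pairs. The number of arrays limits the precision. Alternatives were another offset, normalisation, filter, probe set rule and variance model, array weights, a replicate block, and arrays left out.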

Additional observations from a re-analysis of the deposited data

How the results depend on the processing

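Of the single-member values recomputed under 32 alternatives, 3469 kept direction and side of the threshold, 409 fell short of it, 13 newly passed and 1 turned: Dnajc7 in the inner plexiform layer was at 0.065 without the light-adapted arrays of that layer. Counts of called members that moved by over 1.5 times were as follows. With log2 of intensity plus 16, with quantile normalisation and with the mean of probe sets, the ganglion cell layer had 1. Without a filter, or without the intensity trend, the inner nuclear layer had 0. With a filter at log2 over 7, which left 28 members, the ganglion cell layer had 1, the inner nuclear against the inner plexiform layer 1, the inner plexiform against the ganglion cell layer 1, and whole retina 19. Array weights gave 24 in the photoreceptor layer, 4 in the inner plexiform layer, 10 for photoreceptor against ganglion cell layer, 1 for inner plexiform against ganglion cell layer and 0 for darkness in the inner plexiform layer. Fits on only the arrays compared gave 0 in the inner nuclear layer, 1 for inner nuclear against inner plexiform, 0 for inner plexiform against ganglion cell layer and 0 for darkness in the inner plexiform layer. With the replicate block the 4-layer test called 23, the photoreceptor layer 22, the inner nuclear 2, the inner plexiform 17, the ganglion cell layer 2, photoreceptor against ganglion cell layer 12, inner plexiform against ganglion cell layer 5 and darkness in the inner plexiform layer 5. Same-numbered deviations correlated at 0.0059 to 0.479 over 45 pairs of groups (median 0.127), over 0.1 in 32. All were positive, so same-numbered samples may share something that the main fit leaves out. The labels tie no number to an animal or batch, and the source was not tested. Without the arrays with Y-linked signal the same tests gave 8 over the 4 layers, 5 for photoreceptor, 0 for inner nuclear layer, 2 against the inner nuclear and 2 against the ganglion cell layer for the photoreceptor layer, 0 for inner plexiform against ganglion cell layer and 0 for darkness in the inner plexiform layer. Without the light-adapted inner plexiform arrays they gave 8 over the 4 layers, 0 in the inner nuclear layer, 0 in the inner plexiform layer, 5 for photoreceptor against inner plexiform, 0 for inner nuclear against inner plexiform and 0 for inner plexiform against ganglion cell layer. Leaving out 1 array at a time gave 8 to 17 over the 4 layers, 6 to 18 in the photoreceptor, 0 to 2 in the inner nuclear, 4 to 15 in the inner plexiform and 0 to 2 in the ganglion cell layer, 24 to 44 for whole retina and 0 to 5 for darkness in the inner plexiform layer. For pairs of layers it gave 3 to 8 (photoreceptor and inner nuclear), 13 to 22 (photoreceptor and inner plexiform), 2 to 9 (photoreceptor and ganglion cell), 2 to 4 (inner nuclear and inner plexiform), 0 to 1 (inner nuclear and ganglion cell) and 0 to 5 (inner plexiform and ganglion cell). The other dark comparisons stayed at 0 to 0. The cause of these shifts was not tested. Where a group kept 1 array, that array was assumed to vary like the other groups. The setting without Y-linked signal held no light-adapted ganglion cell layer array, so that layer was represented by darkness alone. The setting without light-adapted inner plexiform arrays left that layer with darkness alone. Median centring gave 26 members higher and 14 lower in the whole retina.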

Other observations

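Probe sets that carry several symbols were kept out of the counts. The 4 probe sets listed for Gm4247 and Dnajb6 were higher in the whole retina than in the layers by 1.22, 1.40, 1.45 and 1.48. The probe set listed for Mir207 and Dnaja1 differed there by -0.44 ± 0.10, opposite in sign to the counted Dnaja1 probe set.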
